A study of Mus musculus with 8 samples.

Results

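Histone acetyltransferases were followed as a family of 10 genes in mouse embryos at the 2-cell stage: Ep300, Crebbp, Kat2a, Kat2b, Kat5, Kat6a, Kat6b, Kat7, Kat8 and Hat1. They were taken as every probe set whose only gene symbol in the platform annotation was one of these names, which gave 24 of the 45101 probe sets on an Affymetrix mouse array. These 10 stand among 18193 genes that the array names by a single symbol. Ep300, Kat8 and Hat1 had 1 probe set each and the other genes had 2 to 4. The samples were 4 of Brg1 mutant embryos and 4 of wild type embryos, each made from the total RNA of 20 whole embryos. The series title speaks of maternal BRG1, the product of Smarca4, and of activation of the embryo's genome. The labels do not name the allele, the promoter of any Cre or the strain. They call the samples biological replicates and say nothing of separate animals, so a p-value reflects sample-to-sample spread that may be partly technical, and with 4 arrays a group small changes cannot be resolved.

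Histone acetyltransferases move an acetyl group from acetyl-CoA to lysines of histone tails, which loosens the hold of the tail on DNA and makes a mark that bromodomain proteins read. BRG1, the ATPase of BAF-type remodelling complexes, carries such a bromodomain. Ep300 and Crebbp encode the paired coactivators p300 and CBP, Kat2a and Kat2b the catalytic subunits GCN5 and PCAF of the SAGA and ATAC complexes, and Kat5, Kat6a, Kat6b, Kat7 and Kat8 the MYST enzymes TIP60, MOZ, MORF, HBO1 and MOF. Hat1 stands apart, since it acetylates newly made histone H4 before the histone is laid into chromatin.

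Of the 10 genes, Kat7 fell and Hat1 rose in the Brg1 mutants, and the other 8 did not pass the test. These calls come from limma on log2 signal with a Benjamini-Hochberg adjusted p under 0.05, and a gene with several tested probe sets was represented by the brightest on average. That 2 of 10 were called stands beside 7.04% of all 11934 tested genes (3.01% called higher and 4.03% called lower), and nothing particular to the family is read from so few genes. The median log2 change was 0.00 over the 10 genes and -0.05 over all tested genes. By their representing probe sets, 3 genes were lower without any overlap of the groups (Ep300, Kat6b and Kat7) and 1 was higher (Hat1), where 10.6% and 8.1% of all tested genes were lower and higher without overlap. In bulk samples, fewer cells of a type and less RNA per cell cannot be told apart.

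The sequences shown are the 250 bases before the annotated start of Kat7 and of Hat1, the genes that were called, from the RefSeq promoter table of GRCm38.p6, 5′ to 3′ on the strand of the gene. The Kat7 window is chr11:95310247-95310496 on the minus strand and the Hat1 window is chr2:71389010-71389259 on the plus strand. Capitals mark every match to the motifs searched.
Kat7: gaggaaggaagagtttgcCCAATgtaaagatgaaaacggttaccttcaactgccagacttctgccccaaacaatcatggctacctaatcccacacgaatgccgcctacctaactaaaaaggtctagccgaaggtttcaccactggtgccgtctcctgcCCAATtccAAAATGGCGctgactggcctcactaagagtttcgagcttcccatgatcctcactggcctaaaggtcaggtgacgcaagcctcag
Hat1: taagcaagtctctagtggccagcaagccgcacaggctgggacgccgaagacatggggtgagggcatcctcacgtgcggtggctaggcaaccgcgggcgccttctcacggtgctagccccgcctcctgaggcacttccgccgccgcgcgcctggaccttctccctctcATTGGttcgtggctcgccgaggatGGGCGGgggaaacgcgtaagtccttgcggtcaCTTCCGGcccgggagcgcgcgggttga

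The motifs were GGGCGG (a GC box), CCAAT (the box of that name), TATAAA (the box named for its first letters), CCGGAAG (an ETS site), TGACGTCA (a cyclic AMP response element) and AANATGGCG (the core of YY1 sites), each searched on both strands. In the printed windows no match overlapped another. The Kat7 window held CCAAT at 232 and 92 bases before the start and AANATGGCG at 84 bases. The Hat1 window held CCAAT in reverse at 83 bases, GGGCGG at 59 bases and CCGGAAG in reverse at 27 bases. Of 32851 windows of 250 bases in the table, 33.8% held CCAAT, 32.7% GGGCGG, 6.91% CCGGAAG and 1.12% AANATGGCG. The Hat1 window was 67.6% G or C with 27 CG dinucleotides, and the Kat7 window 50.8% with 8, against a median of 52.4% G or C over all windows. Windows were found for 9 of the 10 genes, 13 windows in all, and none of them held TATAAA (12.4% of all windows) or TGACGTCA (1.55%). A match here describes letters and not bound sites.

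The arrays had been scaled alike, with median signals of 40.2 to 47.6 in mutant and 36.3 to 45.3 in wild type samples. Markers of the embryo were present, since 11 of 11 oocyte and 2-cell embryo markers lay over the background bound on all 8 arrays. Smarca4, on its brighter probe set, was 2.39-fold lower in the mutants (log2 change -1.26, limma adjusted p = 0.0211), and its other probe set did not pass (log2 change 0.04, limma adjusted p = 0.963). Mutant replicates 3 and 4 stood apart from the other 6 samples. Their signal summed over 18 granulosa and cumulus markers was 22267.6 and 18663.7, against 1727.8 to 2846.1 in mutant replicates 1 and 2 and 2701.3 to 3524.1 in wild type samples, and 16 of the 18 lay over the background bound, against 7 to 13 and 9 to 14. No granulosa marker was listed at 0. Oviduct epithelium markers (6 genes) summed to 327.2 to 466.9 in mutant and 190.8 to 320.8 in wild type samples, with 2 to 4 of the 6 over the bound on each array. Mutant replicates 1 and 2 had oocyte and 2-cell marker sums of 48158.5 and 52116.6, against 22025.3 to 25112.7 in mutant replicates 3 and 4 and 19787.5 to 27512.9 in wild type samples, and their spike-in controls were 4.81 and 3.37 times as bright as in wild type samples on average. The ratio of 3 prime to 5 prime actin signal was 16.3 to 21.1 in wild type samples. In mutant replicates 1 to 4 it was 12.9, 15.0, 7.04 and 4.88. The actin ratio so moved with the groups and was lowest in mutant replicates 3 and 4. The same ratio for Gapdh was 8.58 to 10.1 in wild type samples and 6.63, 6.76, 6.94 and 7.33 in mutant replicates 1 to 4. It was thus lower in every mutant sample than in any wild type sample, and lowest in mutant replicates 1 and 2. The part of these measures in any result below was not tested, and the results of the 10 genes are therefore also given for mutant replicates 1 and 2 and for mutant replicates 3 and 4 apart, each set against the same 4 wild type samples.

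**Figure D1:**
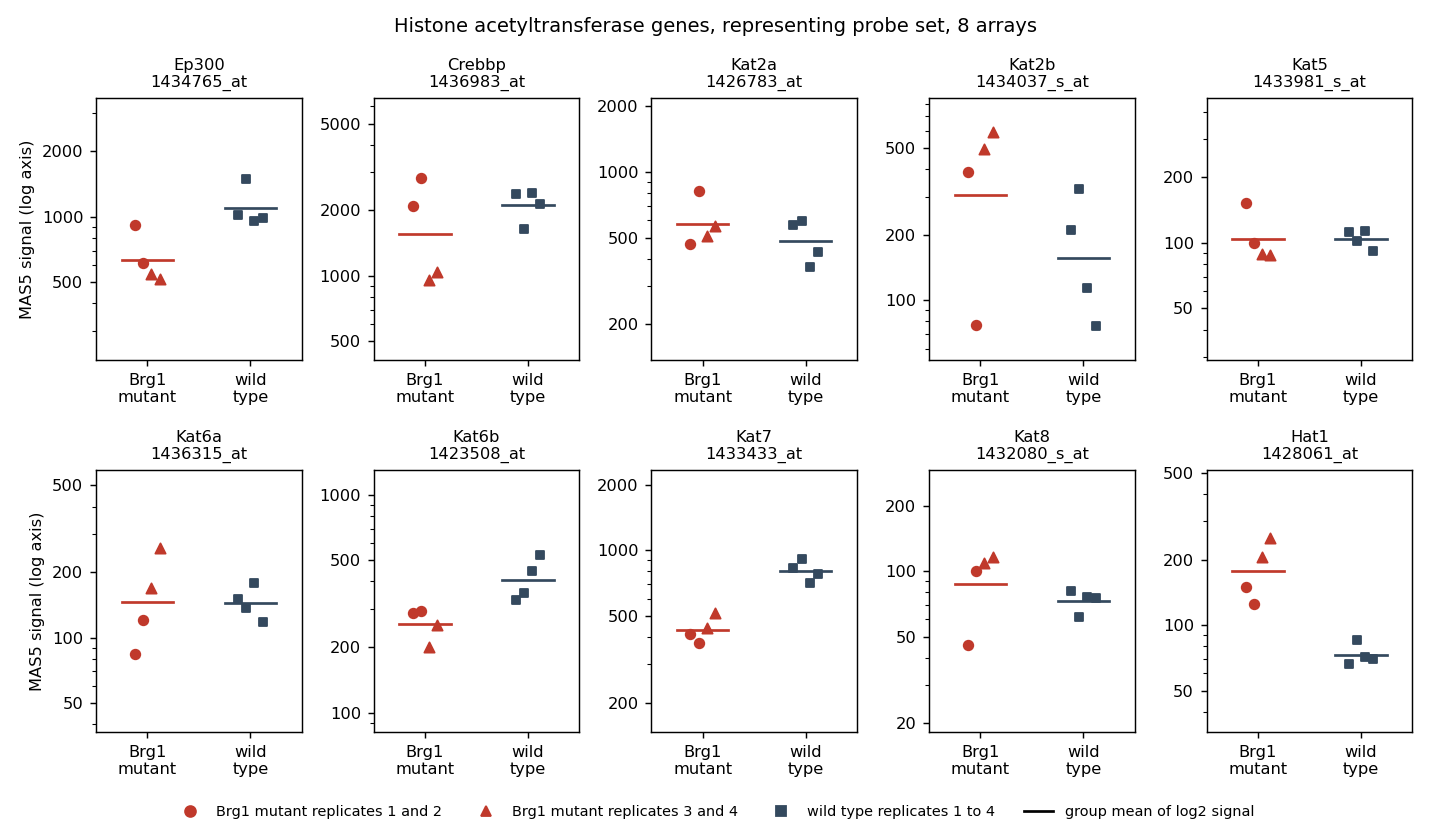
MAS5 signal (log axis) of the representing probe set of each of the 10 genes on the 8 arrays, with Brg1 mutant samples at the left of each panel (circles for replicates 1 and 2, triangles for replicates 3 and 4) and wild type samples (squares) at the right. Horizontal lines are group means of log2 signal. For Kat7 all mutant samples lie under all wild type samples and for Hat1 all lie over them, while mutant replicates 3 and 4 are the lowest samples for Crebbp and the highest for Kat2b.

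Neither coactivator gene passed over all 4 mutant samples, and both were called lower from mutant replicates 3 and 4 alone, where 24.4% of all tested genes were called lower. Ep300 (probe set 1434765_at) read 914.7, 616.1, 545.6 and 518.6 in mutant replicates 1 to 4, against 1017.9, 1490.9, 958.2 and 989.5 in wild type replicates 1 to 4. Every mutant value lay under every wild type value, with mutant replicate 1 just under the lowest wild type sample. The log2 change was -0.79 (SE 0.260, unadjusted 95% interval -1.37 to -0.22), from means of 649 ± 182 in mutant and 1114 ± 252 in wild type samples (SD, n = 4 each), and it did not pass (limma adjusted p = 0.0920). It did pass with each array centred on its median (log2 change -0.97, limma adjusted p = 0.0316) and without mutant replicate 1 (-0.97, limma adjusted p = 0.0337). In mutant replicates 1 and 2 alone the log2 change was -0.54 (limma adjusted p = 0.243) and in replicates 3 and 4 alone it was -1.04 (limma adjusted p = 0.00448), where granulosa marker signal was high.

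Crebbp, which encodes CBP, was read by 4 probe sets, and all of them separated the mutant samples into their pairs. On 1436983_at it read 2089.8, 2818.7, 955.5 and 1040.4 in mutant replicates 1 to 4, against 2369.5, 1646.1, 2392.5 and 2134.8 in wild type samples. On 1434633_at the mutant samples read 1042.7, 1790.8, 418.6 and 421.6, against 1430, 939.8, 1600.3 and 1612.2 in wild type samples. On these, as on 1435224_at and 1459804_at, mutant replicates 3 and 4 lay under every wild type sample. Replicates 1 and 2 lay over every wild type sample on 1459804_at and did not both lie on 1 side on the other 3. Over all 4 mutant samples the log2 changes were between -0.85 and -0.38 and none of the 4 passed (limma adjusted p = 0.272 to 0.655), where 6.56% of all tested probe sets were called. From mutant replicates 3 and 4 alone they were -1.08, -1.01, -1.70 and -1.30 on 1436983_at, 1435224_at, 1434633_at and 1459804_at, and all 4 passed (limma adjusted p = 0.000578 to 0.00199), where 41.6% of all tested probe sets were called. From replicates 1 and 2 alone they were 0.20, -0.01, 0.0020 and 0.54, and none passed (limma adjusted p = 0.212 to 0.997), where 6.71% were called. Mutant replicate 1 also lay under every wild type sample on 1435224_at, at 1173.3 against 1351.3 to 1535.9, and not on the other 3 probe sets.

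Over all 4 mutant samples, with the arrays weighted equally, the SAGA and ATAC enzymes did not pass on any probe set. Kat2a, encoding GCN5, read 464.8, 820.2, 506.2 and 567.3 in mutant samples on 1426783_at, against 569.7, 593.3, 365.2 and 429.9 in wild type samples. The groups overlapped, and the log2 change of 0.26 had an unadjusted 95% interval from -0.33 to 0.85 (limma adjusted p = 0.586). Its dimmer probe sets 1422971_at and 1422972_s_at had log2 changes of -0.22 and 0.06 (limma adjusted p = 0.847 and 0.937). From mutant replicates 1 and 2 alone the changes on 1426783_at, 1422971_at and 1422972_s_at were 0.36, -0.90 and 0.20, and from replicates 3 and 4 alone 0.16, 0.45 and -0.078, and none of the 6 passed (limma adjusted p = 0.386 to 0.838).

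Kat2b, encoding PCAF, varied widely within both groups. On 1434037_s_at it read 387.2, 77.2, 494.8 and 594.2 in mutant samples, against 210.9, 325.7, 113.6 and 76.2 in wild type samples. Mutant replicates 3 and 4 lay over all wild type samples, and mutant replicate 2 was close to the lowest wild type sample. The log2 change was 0.97 with an interval from -0.46 to 2.41 (limma adjusted p = 0.384), and without mutant replicate 2 it was 1.63 (limma adjusted p = 0.0459). In replicates 3 and 4 alone it was 1.80 (limma adjusted p = 0.0179), where granulosa marker signal was high and 19.2% of all tested genes were called higher, and in replicates 1 and 2 alone 0.15 (limma adjusted p = 0.917). The probe set 1457809_at had a log2 change of -0.16 (limma adjusted p = 0.825), with -0.37 from replicates 1 and 2 and 0.053 from replicates 3 and 4 (limma adjusted p = 0.621 and 0.924). The third, 1450821_at, was too dim for the filter, at 7.7 to 17.4 in mutant and 15.4 to 31.9 in wild type samples. On it 3 mutant and 2 wild type samples lay under the background bound, and mutant replicates 1 and 2 lay under every wild type sample. Without a filter it did not pass (log2 change -1.22, limma adjusted p = 0.226).

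Among the MYST enzymes, Kat7 was lower in every mutant sample on its bright probe set. Kat7 encodes HBO1, which acetylates histones H3 and H4 with BRPF or JADE partners and takes part in the licensing of replication origins. On 1433433_at it read 413.3, 375.4, 440.3 and 514.2 in mutant samples, against 831.7, 911.2, 706 and 776 in wild type samples. The highest mutant sample lay well under the lowest wild type sample, and the mutant pairs lay closer to each other than to wild type. Kat7 fell 1.85-fold, with means of 436 ± 58.7 in mutant and 806 ± 86.8 in wild type samples (SD, n = 4 each; log2 change -0.89, SE 0.211, limma adjusted p = 0.0358). It was called in replicates 1 and 2 alone (log2 change -1.03, limma adjusted p = 0.0296), where 3.58% of tested genes were called lower and Kat7 was the only one of the 10 called. In replicates 3 and 4 alone it was called as well (log2 change -0.75, limma adjusted p = 0.0101), where 24.4% of tested genes were called lower.

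The other Kat7 probe sets did not follow. On 1459975_at the mutant samples read 42.5, 40.4, 78.1 and 37.6, against 32.6, 61.8, 61.5 and 78.4 in wild type samples (log2 change -0.24, limma adjusted p = 0.749), and the changes by pair were -0.43 and -0.043 for replicates 1 and 2 and for replicates 3 and 4 (limma adjusted p = 0.550 and 0.944). On 1447631_at they read 66.6, 109.4, 94.4 and 55.4, against 37, 2.8, 48.1 and 22.4 in wild type samples, so that every mutant sample was higher. That probe set lay just outside the filter, at a mean log2 signal of 5.24 where the lowest tested value was 5.25, and without a filter it did not pass (log2 change 2.10, limma adjusted p = 0.172). With the mean of the tested Kat7 probe sets in place of the brightest, the gene did not pass (log2 change -0.56, limma adjusted p = 0.156). Where on the transcript each probe set lies was not examined.

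Kat6b, encoding MORF, was lower in every mutant sample on both of its tested probe sets without passing. On 1423508_at it read 287, 293.3, 200.3 and 251.3 in mutant samples, against 329.9, 353.9, 444.6 and 528 in wild type samples. On 1447758_x_at, a probe set whose name marks possible cross-hybridisation, it read 64.1, 60.1, 19.7 and 56.2 in mutant samples, against 92.8, 117.6, 72.9 and 87.7 in wild type samples. The log2 changes were -0.67 and -1.01 (limma adjusted p = 0.122 and 0.151). They were -0.49 and -0.56 in replicates 1 and 2 alone (limma adjusted p = 0.288 and 0.272) and -0.86 and -1.46 in replicates 3 and 4 alone (limma adjusted p = 0.0196 and 0.0201), the fit in which 24.4% of all tested genes were called lower. The third probe set, 1446189_at, lay under the background bound on all 8 arrays.

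Its paralog Kat6a, encoding MOZ, gave readings that differed between probe sets. On 1436315_at it read 84.2, 121.1, 169.3 and 257.3 in mutant samples, against 150.7, 137, 177.6 and 117.8 in wild type samples, with a log2 change of 0.01 (interval -0.76 to 0.78, limma adjusted p = 0.990). From replicates 1 and 2 alone it was -0.51 and from replicates 3 and 4 alone 0.53, neither of which passed (limma adjusted p = 0.294 and 0.130). On 1437487_at it read 147, 28, 19.8 and 43.8 in mutant samples, against 118.9, 143, 95 and 137 in wild type samples, so that 3 mutant samples were low and replicate 1 was the highest of all 8. This gave a log2 change of -1.49 that did not pass (limma adjusted p = 0.121), nor did the -0.93 from replicates 1 and 2 alone (limma adjusted p = 0.321). From replicates 3 and 4 alone it was -2.05 and passed (limma adjusted p = 0.00174), in the fit that called 41.6% of all tested probe sets. The third, 1446405_at, was too dim for the filter, at 5.5 to 26.1 in mutant and 6.8 to 37.9 in wild type samples. Without a filter it did not pass (log2 change 0.69, limma adjusted p = 0.686).

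**Figure D2:**
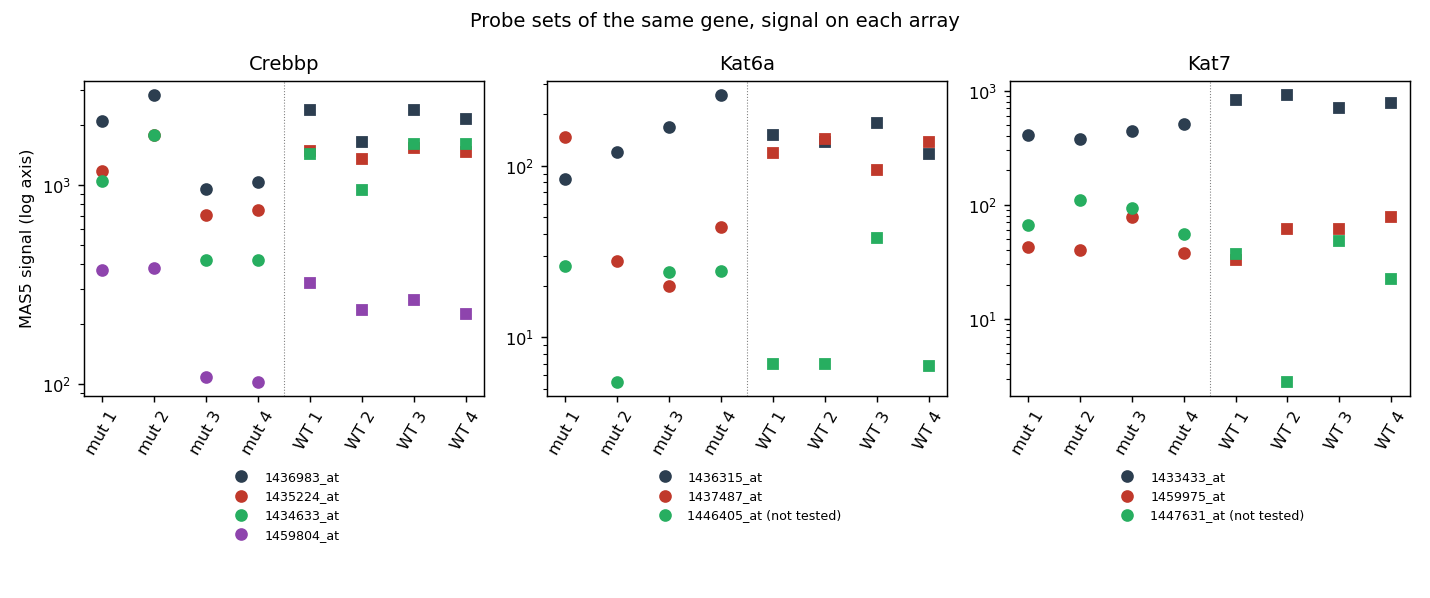
MAS5 signal (log axis) on each array for the probe sets of Crebbp, Kat6a and Kat7, with mutant replicates 1 to 4 (mut, circles) left of the dotted line and wild type replicates 1 to 4 (WT, squares) right of it; colours mark probe sets. The 4 Crebbp probe sets all drop in mutant replicates 3 and 4, while those of Kat6a and of Kat7 do not move together.

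Kat5 and Kat8 showed no called change. Kat5, encoding TIP60, the NuA4 enzyme with a part in the DNA damage response, read 152.8, 99.6, 88.6 and 87.8 in mutant samples on 1433981_s_at, against 112.5, 101.9, 112.9 and 91.9 in wild type samples. The log2 change was -0.0017 with an interval from -0.59 to 0.59 (limma adjusted p = 0.998), and 1433980_at gave -0.08 (limma adjusted p = 0.912). By pair, 1433981_s_at gave 0.24 and -0.24 and 1433980_at -0.055 and -0.10 for replicates 1 and 2 and for replicates 3 and 4, with none passing (limma adjusted p = 0.418 to 0.948). Kat8, encoding MOF, which acetylates histone H4 in the MSL and NSL complexes, read 45.9, 99.8, 109.2 and 115.5 in mutant samples on 1432080_s_at, against 81.4, 61.6, 75.8 and 75.4 in wild type samples. Mutant replicate 1 was under and the other 3 mutant samples were over all wild type samples, with a log2 change of 0.25 (SE 0.337, limma adjusted p = 0.691). It was -0.11 from replicates 1 and 2 alone and 0.62 from replicates 3 and 4 alone (limma adjusted p = 0.876 and 0.0672).

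Hat1 was higher in every mutant sample. On its only probe set, 1428061_at, it read 150.3, 125.3, 205.4 and 251.8 in mutant samples, against 66.1, 85.8, 71.6 and 70.2 in wild type samples. The lowest mutant sample lay well over the highest wild type sample, and mutant replicates 3 and 4 were higher than replicates 1 and 2. Hat1 rose 2.42-fold, with means of 183 ± 56.7 in mutant and 73.4 ± 8.57 in wild type samples (SD, n = 4 each; log2 change 1.27, SE 0.283, limma adjusted p = 0.0297). In replicates 1 and 2 alone the log2 change was 0.91 and did not pass (limma adjusted p = 0.0735). In replicates 3 and 4 alone, with high granulosa marker signal, it was 1.64 and passed (limma adjusted p = 0.000653), where 19.2% of tested genes were called higher.

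The calls of Kat7 and Hat1 both needed most of the samples. With 1 sample left out they were lost in 6 of 8 fits each, namely without wild type replicate 1, 2, 3 or 4 and without mutant replicate 3 or 4. The limma adjusted p then lay between 0.0347 and 0.111 for Kat7 and between 0.0169 and 0.0953 for Hat1 over the 8 fits, while the log2 change stayed within -0.97 to -0.82 and 1.10 to 1.44.

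**Figure D3:**
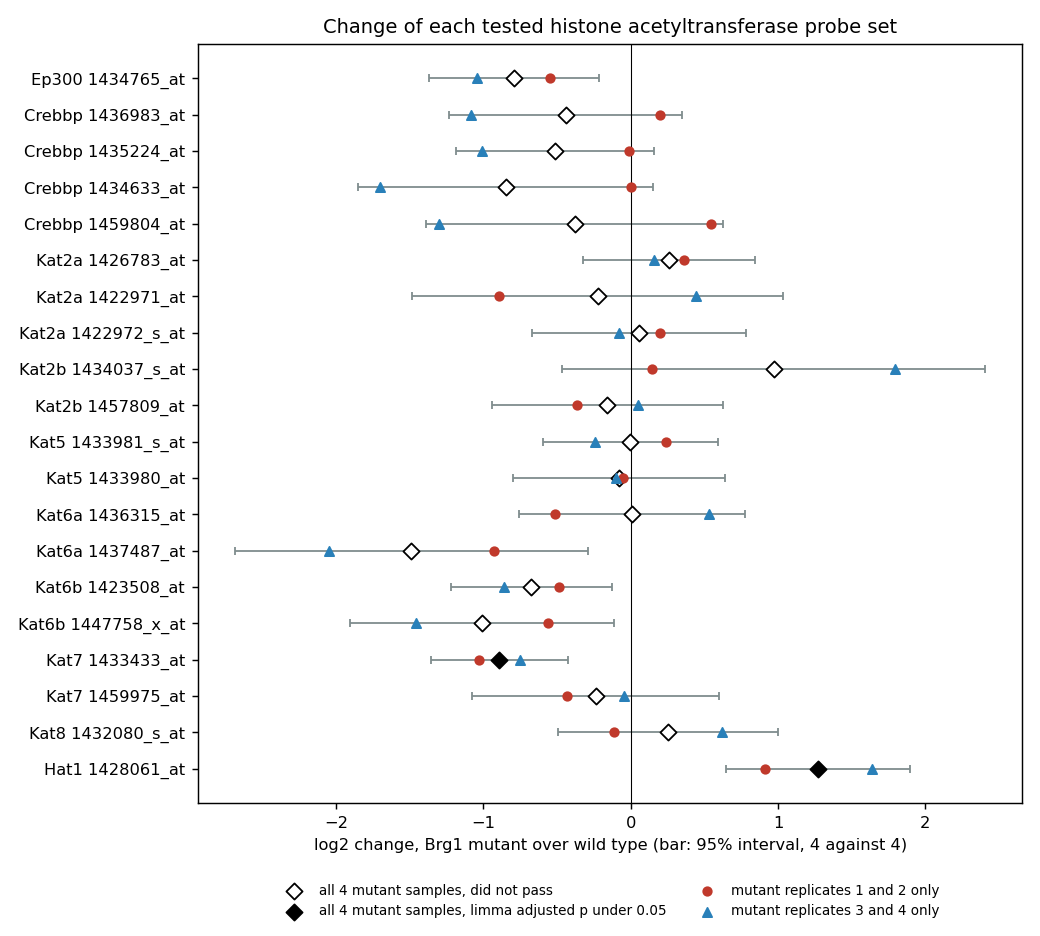
Log2 change, Brg1 mutant over wild type, of the 20 tested probe sets, with diamonds and unadjusted 95% intervals for all 4 mutant samples (filled where the limma adjusted p was under 0.05), circles for mutant replicates 1 and 2 only and triangles for replicates 3 and 4 only. The filled diamonds are Kat7 at -0.89 and Hat1 at 1.27, and the circles and triangles of the 4 Crebbp probe sets lie far apart.

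The mutant pairs differed from each other across the family. Mutant replicates 3 and 4 did not overlap replicates 1 and 2 for 9 of the 10 genes: they were lower for Ep300, Crebbp, Kat5 and Kat6b and higher for Kat2b, Kat6a, Kat7, Kat8 and Hat1. The same held for 42.1% of all tested genes in the lower and 28.1% in the higher direction, and 2 samples on each side carry no test. Replicates 3 and 4 alone called 4 of the 10 genes lower and 2 higher, where 43.5% of all tested genes were called in either direction. Replicates 1 and 2 alone called 1 of 10 lower and 0 higher (2 of 10 at an unadjusted p under 0.05 in limma), where 7.44% of all tested genes were called (3.86% called higher and 3.58% called lower).

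Partner genes of these enzymes were read from 9 lists covering complex subunits, coactivator partners, other reported acetyltransferases, readers of acetyl-lysine and enzymes of acetyl-CoA supply. Of 114 genes listed, 101 had a tested probe set, and 4 of these fell, 0 rose and 97 did not pass, where 4.03% of all tested genes were called lower. The share of partner genes called lower, 3.96%, was near that background. At an unadjusted p under 0.05, limma gave 4 partner genes higher and 18 lower. The share of all tested genes at that unadjusted threshold was not counted, so nothing about the partners or the family is read from unadjusted counts. The median log2 change was -0.12 over partner genes and -0.05 over all tested genes.

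The 4 that fell belong to different complexes. Taf9b, encoding a subunit of SAGA and TFIID, read 202.6, 201.1, 62.4 and 75.7 in mutant samples, against 1368.3, 1033.1, 1196.2 and 1248.5 in wild type samples (log2 change -3.36, limma adjusted p = 0.00649). Dr1, a transcriptional corepressor subunit also found in ATAC, read 1472.6, 1056.8, 522 and 499.7 in mutant samples, against 2934.7, 2721, 2600.1 and 2156.1 in wild type samples (log2 change -1.70, limma adjusted p = 0.0245). Epc1, a scaffold of the NuA4 complex of Kat5, read 853.7, 1325.1, 702.2 and 654.3 in mutant samples, against 2576.7, 2200.7, 2389 and 2536.7 in wild type samples (log2 change -1.51, limma adjusted p = 0.0152). In each of these genes all mutant samples lay under all wild type samples.

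Ncoa3, a nuclear receptor coactivator that binds p300 and CBP, read 859.4, 822.5, 458.9 and 387.3 in mutant samples, against 1859.4, 1311.2, 1891.5 and 1942.4 in wild type samples (log2 change -1.54, limma adjusted p = 0.0216), again without overlap. All 4 genes were also called from mutant replicates 1 and 2 alone (log2 change -2.58, -1.05, -1.19 and -1.04 for Taf9b, Dr1, Epc1 and Ncoa3, limma adjusted p = 0.00261 to 0.0310), where 3.58% of all tested genes were called lower. In replicates 3 and 4 alone the log2 changes were -4.13, -2.34, -1.84 and -2.04, and all 4 passed in the fit that called 24.4% lower. Replicates 1 and 2 alone called 6 of the 101 partner genes lower and 3 higher, and replicates 3 and 4 alone called 33 lower and 11 higher. Of all tested genes these fits called 3.58% and 24.4% lower and 3.86% and 19.2% higher. Of the calls from replicates 1 and 2, Epc2 and Mbtd1, both of NuA4, were higher there (log2 change 0.93 and 0.86, limma adjusted p = 0.0279 and 0.0257) and lower from replicates 3 and 4 (log2 change -0.61 and -0.89, limma adjusted p = 0.0181 and 0.00292), and were named after their values were seen. Taf9b kept its call with each of the 8 samples left out. The call of Dr1 was lost without mutant replicate 3 or 4 or any 1 wild type sample, that of Ncoa3 without mutant replicate 3 or 4 or wild type replicate 1, 3 or 4, and that of Epc1 without wild type replicate 1, 3 or 4 (highest limma adjusted p = 0.0870, 0.0791 and 0.0626). As with Kat7, a second tested probe set did not pass for Dr1, Epc1 or Ncoa3 (log2 change -0.68, 0.05 and -0.09, limma adjusted p = 0.491, 0.935 and 0.920). In turn, 5 of the 104 tested probe sets that did not represent their partner gene were called, all 5 lower. Over all tested probe sets 6.56% were called in either direction, and the 5 are named here after their values were seen. These were probe sets of Brd8 (log2 change -1.04, limma adjusted p = 0.0419), Kansl1 (-2.99, limma adjusted p = 0.00630), Hcfc1 (-1.41, limma adjusted p = 0.0415), Gtf3c4 (-1.32, limma adjusted p = 0.0312) and Brdt (-1.64, limma adjusted p = 0.0434). The Brd8 and Kansl1 probe sets were also called from each mutant pair apart. Of all tested probe sets 6.71% were called from replicates 1 and 2 and 41.6% from replicates 3 and 4.

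**Figure D4:**
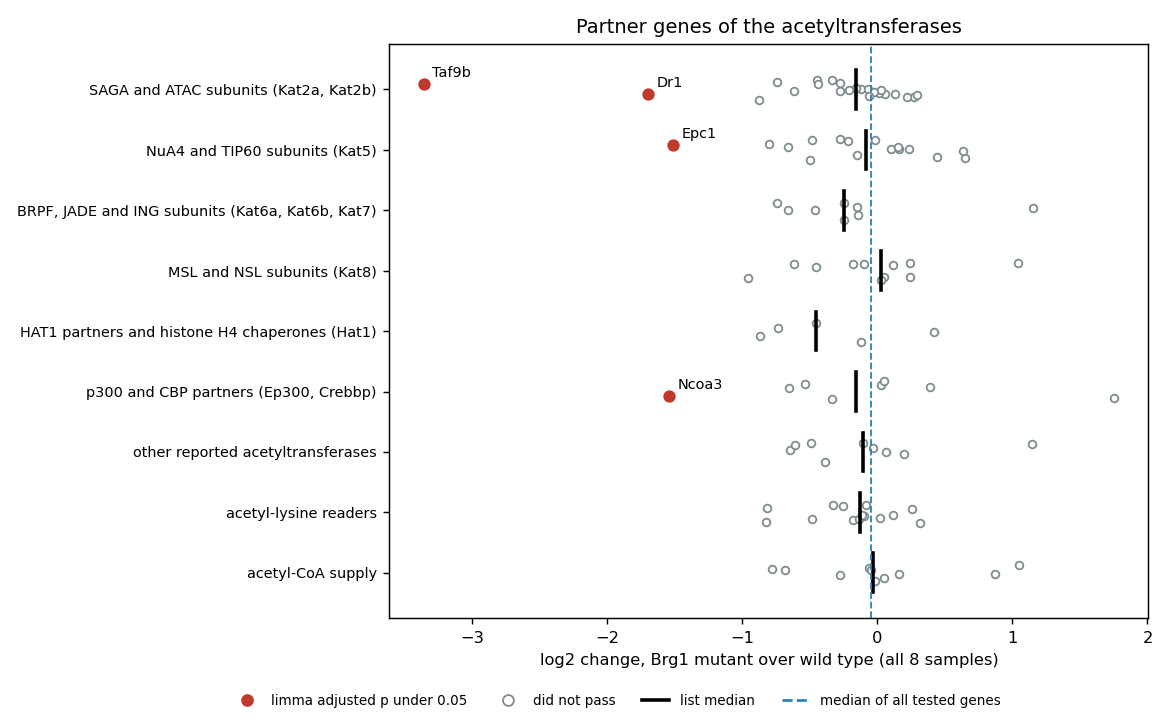
Log2 change, Brg1 mutant over wild type over all 8 samples, of the tested genes of each partner list, with filled points for the 4 genes whose limma adjusted p was under 0.05, black bars for list medians and a dashed line for the median of all tested genes. The 4 called genes lie at -1.51 or lower and the list medians lie between -0.45 and 0.03.

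List by list, on representing probe sets over all 8 samples, SAGA and ATAC subunits had 2 of 23 tested genes lower, and Supt7l and Supt20 followed with log2 changes of -0.74 and -0.62 that did not pass (limma adjusted p = 0.0967 and 0.101). NuA4 subunits had 1 of 16 lower, and Meaf6, Brd8 and Ep400 did not pass on their representing probe sets (log2 change -0.66, -0.80 and -0.48). The partners of p300 and CBP had 1 of 8 lower, and Creb1, Cited2 and Crtc3 did not pass (log2 change -0.65, 1.75 and -0.34). Cited2 was an example of the split mutant group, with a log2 change of 4.06 from replicates 3 and 4 alone and -0.55 from replicates 1 and 2 alone.

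None of the 8 tested BRPF, JADE and ING subunits, listed together for the complexes of Kat6a, Kat6b and Kat7, passed. The nearest were Ing5, Meaf6, Brpf3 and Jade3 (log2 change 1.15, -0.66, -0.74 and -0.46, limma adjusted p = 0.126 to 0.398). None of 11 MSL and NSL subunits, the partners of Kat8, passed on the representing probe set, with Msl2, Msl3, Ogt and Kansl1 at -0.95, -0.62, 1.04 and -0.45 (limma adjusted p = 0.0583 to 0.286). Beside the rise of Hat1, none of its 5 partners and histone chaperones passed over all 8 samples. From mutant replicates 1 and 2 alone, 1 of the 5 was called higher and 0 lower, where 3.86% of all tested genes were called higher. From replicates 3 and 4 alone, 2 were called lower and 0 higher, where 24.4% of all tested genes were called lower. The values that follow are again from all 8 samples. The chaperone genes Nasp and Asf1b had log2 changes of -0.87 and -0.74 (limma adjusted p = 0.0797 and 0.129), and Rbbp4 and Rbbp7, whose products bind histone H4, of -0.45 and 0.42 (limma adjusted p = 0.438 and 0.474).

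The same held for the remaining lists. On representing probe sets, none of 9 other reported acetyltransferases passed, and the nearest were Esco2, Elp3, Taf1 and Naa40 (log2 change -0.61, 1.15, -0.65 and -0.49). Of 14 acetyl-lysine readers none passed, with Atad2, Mllt3, Brd7 and Dpf2 at -0.81, -0.82, -0.48 and -0.33. Of 10 genes of acetyl-CoA supply none passed, with Pdk1, a kinase that restrains pyruvate dehydrogenase, at 1.05, the dehydrogenase subunit genes Pdha1 and Pdhx at -0.68 and -0.78, and Acss2, an acetyl-CoA synthetase, at 0.87 (limma adjusted p = 0.0975 to 0.308 over these 4). The 2 mutant pairs differed on this list, and on others too. From replicates 1 and 2 alone none of the BRPF, JADE and ING subunits, the MSL and NSL subunits or the acetyl-lysine readers was called. From replicates 3 and 4 alone, 5 of 8, 5 of 11 and 5 of 14 were called lower and 1, 1 and 0 higher. Of the SAGA and ATAC subunits 8 of 23 were called lower there, and of the NuA4 subunits 5 of 16. For p300 and CBP partners it was 2 of 8 and for other reported acetyltransferases 3 of 9. On these lists 1, 2, 1 and 1 were called higher. That fit called 24.4% of all tested genes lower. Of the 10 acetyl-CoA supply genes, replicates 1 and 2 alone called 2 lower and 0 higher, where 3.58% of all tested genes were called lower. These were Slc25a1, the mitochondrial citrate carrier, at -1.40 and Pdha1 at -1.10 (limma adjusted p = 0.0241 and 0.0488). The median was -0.49 over the list and 0.04 over all tested genes. Replicates 3 and 4 alone called 4 higher and 0 lower, where 19.2% of all tested genes were called higher and 43.5% in either direction. The 4 were Acly, Acss2, Slc25a1 and Dld (log2 change 0.79, 1.76, 1.36 and 0.93, limma adjusted p = 0.00146 to 0.0353). The median was then 0.51 over the list and -0.19 over all tested genes. The difference between the pairs was not tested.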

How the data were processed

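Per the submitters' processing notes the deposited values are MAS5 signals, a linear intensity for each probe set, with the MAS5 version not stated there. No rescaling was applied, because the 2% trimmed means of the 8 arrays lay within 0.000162% of their median. Values were floored at 1 and put on the log2 scale, and 64 control probe sets were removed. The brighter 50% by mean over the 8 arrays, 22518 of 45037, entered the test, among them 20 of the 24 acetyltransferase probe sets. The contrast of mutant over wild type was fitted in limma 3.58.1 under R 4.3.3, using lmFit and then eBayes with trend, as a two-sided test with Benjamini-Hochberg adjustment over 22518 probe sets at 0.05. The brightest tested probe set stood for its gene, and fold changes were back-transformed from log2. An array's background bound was the 95th percentile of its 27 Bacillus controls, and marker sums took the brightest probe set of each gene. Symbols came from the platform annotation (24 of 24 gene identifiers were found in the RefSeq table). The text names all 10 enzymes, Smarca4, and from each partner list every gene that passed and the 4 with the smallest adjusted p. Partner genes named only for a call from 1 mutant pair, or for a probe set that did not represent the gene, were picked after their values were seen. The family, the lists and the separation of mutant replicates 1 and 2 from replicates 3 and 4 were chosen with earlier results of these data known. Tested on simulated data for this contrast with 22518 probe sets, the fit found 61 of 113 changes of size 2 on the log2 scale (54.0%) and 6 of 87 of size 1 (6.90%), with 8.22% of its calls false. The simulation changed no other probe sets and drew noise independently for each array. In the data 1478 probe sets were called, and mutant replicates 3 and 4 correlated at 0.97 with each other and 0.74 to 0.77 with the other samples. The simulated rates therefore need not hold for this contrast. Alternatives varied scaling, filter, pseudocount, trend, array weights, replicate block, probe set averaging and the samples included.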

Additional observations from a re-analysis of the deposited data

Results flagged for a closer look

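In 6 of 48 sets of 4 samples (24 probe sets in mutant and in wild type samples), the gap between the most extreme sample and its nearest neighbour exceeded 0.829 of the whole range on the log2 scale, a limit that chance passes in about 1 in 20 sets. For Ep300 this was wild type replicate 2, at 1490.9 against 958.2 to 1017.9 in the other wild type samples (gap 0.863 of the range). For Kat8 it was mutant replicate 1, at 45.9 against 99.8 to 115.5 (0.842). For Kat6b on 1447758_x_at it was mutant replicate 3, at 19.7 against 56.2 to 64.1 (0.889). For Kat7 on 1459975_at it was mutant replicate 3, at 78.1 against 37.6 to 42.5 (0.832). On the dim Kat6a probe set 1446405_at it was mutant replicate 2, at 5.5 against 24 to 26.1 (0.946), and wild type replicate 3, at 37.9 against 6.8 to 7 (0.983).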

How the results depend on the processing

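The family's count of 2 called genes became 1 with quantile normalization (Hat1), without an intensity trend (Hat1), with a gene's tested probe sets averaged (Hat1) and without mutant replicates 3 and 4 (Kat7), 6 with array weights and also 6 when mutant replicates 1 and 2 were dropped, and ran from 0 to 3 when each sample was left out. The partner count of 4 became 8 with median centring, 52 with array weights, 9 from mutant replicates 1 and 2 alone and 44 from replicates 3 and 4 alone, and ran from 1 to 8 with each sample left out. Over all probe sets the 1478 calls (671 higher, 807 lower) became 11486 with array weights and 9358 from mutant replicates 3 and 4 alone, and ran from 73 to 2926 with each sample left out. The labels share replicate numbers, but same-numbered samples did not deviate together (correlations of -0.18 to 0.02), and with the replicate block limma called 15 probe sets, 0 of the 10 genes and 0 partner genes (4 and 19 at an unadjusted p under 0.05). Scaling moved the median change from -0.05 to -0.14 under quantile normalization, -0.22 under median centring and -0.19 under 75th percentile centring, with 490 higher and 795 lower, 421 and 1557, and 496 and 1104. Under them Kat7 changed by -0.81, -1.07 and -1.04 and Hat1 by 1.13, 1.10 and 1.13 on the log2 scale (limma adjusted p = 0.0525, 0.0204 and 0.0222, and 0.0363, 0.0460 and 0.0342). Changes that turned sign did so without passing the test. Under the 3 scalings Kat2a 1422972_s_at was at -0.10, -0.12 and -0.086 and Kat6a 1436315_at at -0.14, -0.17 and -0.13. With a pseudocount in place of the floor Kat5 1433981_s_at was at 0.0013. With array weights Kat2a 1422971_at was at 0.43, 1422972_s_at at -0.0076, Kat2b 1457809_at at 0.20 and Kat5 1433980_at at 0.035. Without mutant replicates 3 and 4 Crebbp was at 0.20, 0.0020 and 0.54 on 1436983_at, 1434633_at and 1459804_at, Kat5 1433981_s_at at 0.24, Kat6a 1436315_at at -0.51 and Kat8 at -0.11. Without mutant replicates 1 and 2 Kat2a was at 0.45 and -0.078 on 1422971_at and 1422972_s_at and Kat2b 1457809_at at 0.053. With its probe sets averaged Kat6a was at -0.74. With each sample left out, Kat2a ran from -0.54 to 0.38 on 1422971_at and from -0.20 to 0.22 on 1422972_s_at, Kat2b 1457809_at from -0.37 to 0.086, Kat5 from -0.19 to 0.081 on 1433981_s_at and -0.24 to 0.068 on 1433980_at, and Kat6a 1436315_at from -0.27 to 0.27. The cause of these shifts was not tested.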
